A study of Homo sapiens with 18 samples.

Results

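The response of NCI-H211 cells to a guide against POU2F3 was compared between cells that carried a POU2F3 cDNA with the L191A change and cells that carried the wild-type cDNA (WT). NCI-H211 is a human cell line from a small cell lung cancer that expresses POU2F3 and resembles tuft cells. The L191A change replaces a leucine by an alanine. All cells were Cas9+, and the cDNAs were CRISPR-resistant, so the guide was aimed at the endogenous gene only. Cells of each stable line received lentivirus with sgPOU2F3 or with sgRosa, the non-targeting control, and RNA was taken on day 5. The comparison used 12 of the 18 libraries: 3 of L191A sgPOU2F3, 3 of L191A sgRosa, 3 of WT sgPOU2F3 and 3 of WT sgRosa. The other 6 came from empty-vector cells under the same guides and are given beside some values, with no test. The labels do not say whether a line was a clone or a pool. The 3 libraries of a group were replicates of 1 line, so p-values measured the spread between replicates of a line only.

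The quantity compared was a difference of responses. The response of a line was its mean log2(TPM + 1) with sgPOU2F3 minus that with sgRosa, and the response of WT cells was subtracted from that of L191A cells. TPM is a relative abundance, scaled for transcript length and to the same total in every library. The 12976 genes that averaged 1 TPM or more across these libraries were kept, of 19745 in the table. A gene was called at an adjusted p of 0.05 (limma over all genes tested, Benjamini-Hochberg). "Called higher" means that the response of L191A cells was above that of WT cells, and "called lower" that it was below.

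POU2F3 is a POU-domain factor that binds the octamer sequence in DNA and specifies tuft cells, the chemosensory cells of airway and gut that use taste-type signalling. It acts with small coactivator proteins, among them OCA-T1 (POU2AF2, listed as C11orf53) and OCA-T2 (POU2AF3, listed as COLCA2). Where the guide cuts the endogenous gene, the WT or L191A cDNA is the remaining source of intact protein.

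Of the 12 libraries, 2 stood apart from the others of their group. L191A sgRosa replicate 1 had a median of 7.19 TPM over the genes tested, and WT sgPOU2F3 replicate 1 had 12.9 TPM, against 19.43 to 26.71 TPM in the other 10. Transcripts of cytosolic ribosomal proteins took 37.96% and 32.76% of their TPM, against 17.56% to 26.4% in the other 10. Read depth is unknown for every library because each column was scaled to the same total. One skewed library lies in the control group of the L191A response and the other in the guide group of the WT response, and the median difference of all genes was 0.454 log2 units without the L191A library and 0.625 without the WT library, against 0.799 with both. Differences are therefore given in 12 libraries, in the 10 libraries without the skewed pair, and after median-ratio scaling of the 12. In lists of 3 values the order is that of the replicate numbers, so the skewed library is the first value of L191A sgRosa and of WT sgPOU2F3.

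The labelled cell type was checked against its markers. Of 41 tuft markers, 8 were under 1 TPM in all 12 libraries. Their summed level was 3440 to 3490 TPM in L191A sgPOU2F3 libraries, 2080 to 4520 TPM in L191A sgRosa libraries, 5560 to 6180 TPM in WT sgPOU2F3 libraries and 7280 to 7820 TPM in WT sgRosa libraries. The sum was higher in every WT library than in every L191A library, also under sgRosa. KRT18, a keratin of simple epithelia, is part of the sum and was highest in L191A sgPOU2F3 libraries, with its values given below.

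POU2F3 itself had 621, 672 and 645 TPM with sgPOU2F3 and 142, 1053 and 831 TPM with sgRosa in L191A cells. POU2F3 in WT cells had 1136, 1276 and 1049 TPM with sgPOU2F3 and 1701, 1881 and 1796 TPM with sgRosa. Empty-vector cells had 253, 318 and 274 TPM with sgPOU2F3 and 682, 654 and 853 TPM with sgRosa. The L191A libraries with sgPOU2F3 were all below every WT library, and the skewed L191A sgRosa library had the lowest value of the 12. These values can add up the cDNA and the endogenous transcript, also from gene copies that the guide cut. They therefore do not measure the protein of either. The response of POU2F3 was -0.53 log2 units in L191A cells (adjusted p = 0.00542) and -0.63 in WT cells (adjusted p = 0.000927) in the 10 libraries, and neither passed the test in 12. The difference of its response was 1.01 ± 0.78 log2 units (SE; adjusted p = 0.302) in 12 libraries. POU2F3 differed by 0.10 (adjusted p = 0.666) in 10 libraries and by 0.10 (adjusted p = 0.902) after median-ratio scaling. It was called under none of these settings.

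Among the partners of POU2F3, C11orf53, which encodes the coactivator OCA-T1, had 173, 176 and 161 TPM with sgPOU2F3 and 244, 407 and 379 TPM with sgRosa in L191A cells. C11orf53 in WT cells had 470, 486 and 521 TPM with sgPOU2F3 and 720, 611 and 602 TPM with sgRosa. With sgPOU2F3 the L191A values were all below every other value of the 12. The difference of its response was -0.59 ± 0.25 log2 units (SE; adjusted p = 0.131) in 12 libraries. C11orf53 differed by -0.85 (adjusted p = 0.000525) in 10 libraries and by -1.50 (adjusted p = 0.0151) after median-ratio scaling. The response of L191A cells was called lower than that of WT cells in the 10 libraries and after scaling, and not in 12. Empty-vector cells had 285, 282 and 281 TPM with sgPOU2F3 and 589, 590 and 623 TPM with sgRosa. COLCA2, which encodes OCA-T2, had 9.73, 6.79 and 9 TPM with sgPOU2F3 and 3.22, 9.47 and 6.48 TPM with sgRosa in L191A cells. COLCA2 in WT cells had 6.9, 12.5 and 10.1 TPM with sgPOU2F3 and 11.7, 13 and 14.7 TPM with sgRosa. The guides overlapped in L191A cells. For COLCA2 the difference was 0.86 ± 0.47 log2 units (SE; adjusted p = 0.172) in 12 libraries. COLCA2 differed by 0.29 (adjusted p = 0.354) in 10 libraries and by 0.06 (adjusted p = 0.877) after median-ratio scaling. POU2F1, which encodes the widely expressed octamer factor OCT1, differed by 1.52 ± 0.57 log2 units (SE; adjusted p = 0.127) in 12 libraries. POU2F1 differed by 0.70 (adjusted p = 0.00868) in 10 libraries and by 0.83 (adjusted p = 0.124) after median-ratio scaling. With the length trend removed in 10 libraries POU2F1 differed by 0.07 (adjusted p = 0.755). POU2F2, which encodes OCT2, and POU2AF1, which encodes the B-cell coactivator OCA-B, had a mean under 1 TPM and were not tested.

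Over all genes, the response of L191A cells was above that of WT cells more often than below it. In 12 libraries 287 genes were called higher (2.21% of those tested) and 10 lower (0.0771%). In the 10 libraries 3999 were called higher (30.8%) and 570 lower (4.39%). After median-ratio scaling of the 12 libraries 328 were called higher (2.53%) and 106 lower (0.817%). The median difference of all genes was 0.8, 0.28 and 0.02 log2 units under these settings, so single genes are to be read against those shifts. The split between higher and lower moved with the scaling: with median-ratio scaling in the 10 libraries 1663 genes were called higher (12.8%) and 1877 lower (14.5%). In 12 libraries 96.6% of the calls were higher, and after median-ratio scaling 75.6%. The count in 12 libraries also moved with single libraries. Against 297 calls in all, the fit gave 1434 without L191A sgRosa replicate 1, 560 without L191A sgRosa replicate 2, and 181 and 152 without WT sgPOU2F3 replicates 1 and 2. It gave 73, 79 and 95 without L191A sgPOU2F3 replicates 1 to 3, and 76, 101 and 81 without WT sgRosa replicates 1 to 3.

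Both responses were also tested on their own. In L191A cells 376 genes rose with sgPOU2F3 (2.9%) and 30 fell (0.231%) in 12 libraries, and 1290 rose (9.94%) and 723 fell (5.57%) in the 10. In WT cells 42 rose (0.324%) and 60 fell (0.462%) in 12 libraries, and 962 rose (7.41%) and 5733 fell (44.2%) in the 10. The median response of all genes in the 10 libraries was 0.01 log2 units in L191A cells and -0.26 in WT cells. The WT sgRosa libraries had the highest medians of the 12, 23.63 to 26.71 TPM, and the share of this in the WT falls was not tested.

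**Figure D1:**
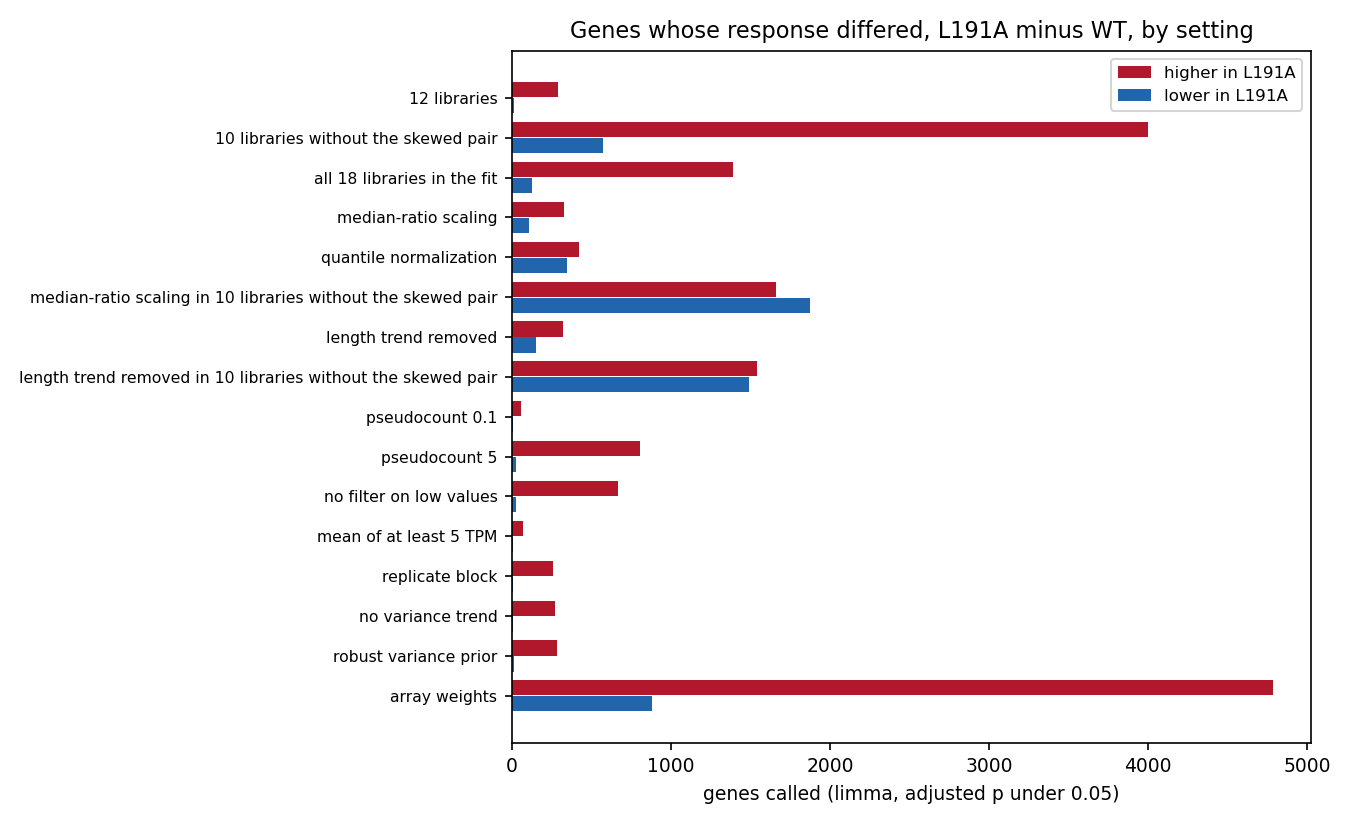
Number of genes called (horizontal axis) whose response to sgPOU2F3 was higher in L191A than in WT cells (red) or lower (blue), for each setting of the fit (vertical axis; leave-one-out fits not drawn). The 12-library fit calls 287 higher and 10 lower, the 10-library fit 3999 and 570, and median-ratio scaling in 10 libraries 1663 and 1877.

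The difference also ran with transcript length. Across genes, its correlation with log2 transcript length was 0.39 in 12 libraries and 0.24 in 10 (Pearson's r, a description, since genes share libraries). Removing each library's length trend in the 10 libraries, an alternative added after the data were seen, gave 1541 genes called higher (11.9%) and 1490 called lower (11.5%). RNA quality was not measured, and its part in the calls was not tested.

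Genes called higher in 12 libraries, in 10 libraries and after median-ratio scaling numbered 200, and 192 of them were also called with the length trend removed in 10 libraries. In the 10 libraries 82 of them rose in L191A cells and did not pass the test in WT cells, 61 rose in L191A and fell in WT cells, 24 rose in both and 33 fell in WT cells without passing the test in L191A cells. Over all genes tested 9.94% rose in L191A cells, 7.41% rose in WT cells and 44.2% fell in WT cells in these libraries. The median response of the 200 genes was 1.34 log2 units in L191A cells and -0.3 in WT cells, against 0.01 and -0.26 over all genes. The 200 were picked by their difference in these libraries, so an L191A response above the WT response follows from that choice. With sgPOU2F3 the median level was 1.1 log2 units above that of WT cells in L191A cells. With sgRosa it was -0.58 log2 units, below that of WT cells. That L191A minus WT cells was larger with sgPOU2F3 than with sgRosa follows from the same choice. Over all genes the median of L191A minus WT cells was -0.01 with sgPOU2F3 and -0.31 with sgRosa in these libraries. In empty-vector cells 142 of the 200 had a response above 0, with a median of 0.83 log2 units. The median empty-vector response of all genes tested was -0.13 log2 units. The median transcript length of the 200 was 2581 bases, against 1814 bases over all genes tested.

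**Figure D2:**
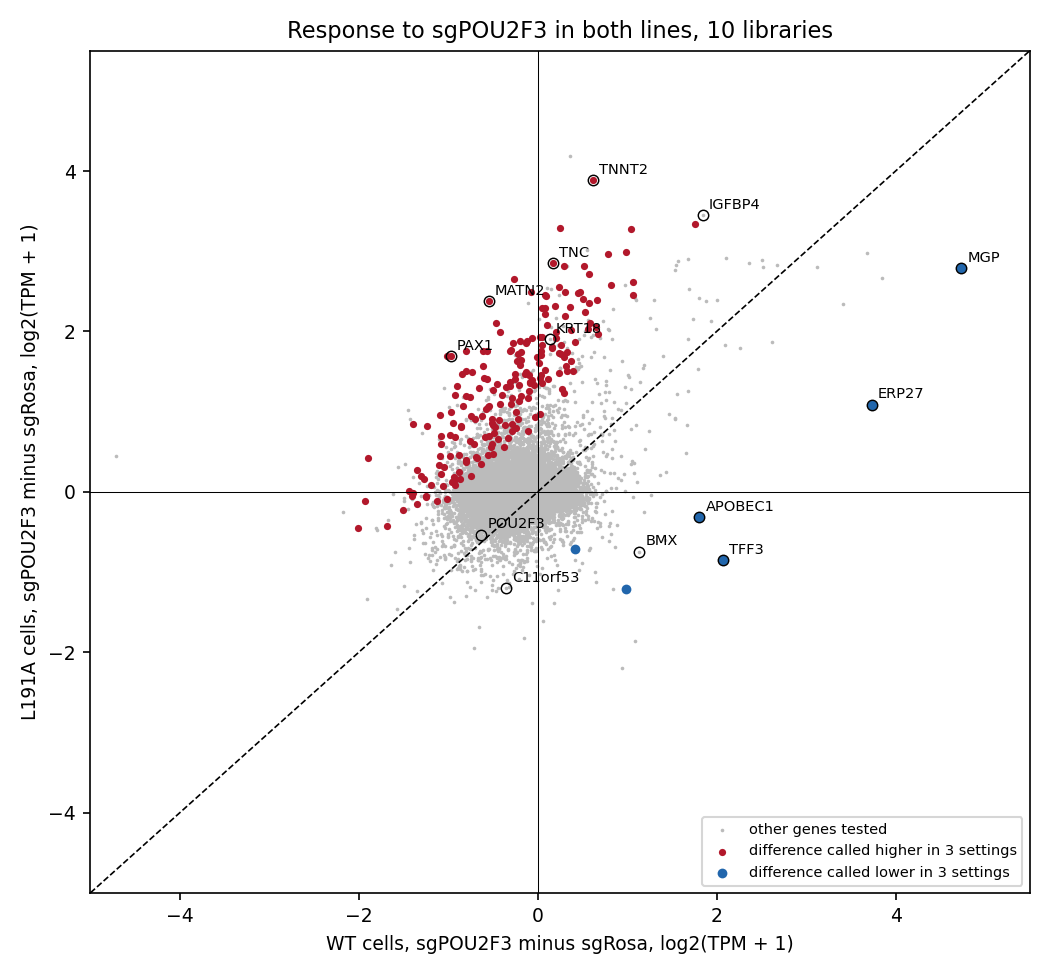
Response to sgPOU2F3 (sgPOU2F3 minus sgRosa, log2(TPM + 1)) in L191A cells (vertical axis) against WT cells (horizontal axis) in the 10 libraries, 1 point per gene tested. Red points are the 200 genes called higher and blue points the 6 called lower in all 3 settings, the dashed line marks equal responses, and black rings mark the genes written beside them. TNNT2 lies at 3.88 in L191A and 0.62 in WT cells, MGP at 2.79 and 4.73.

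The 12 largest differences called higher in all 3 settings came from genes of the cell surface, the matrix and the actin skeleton among others. TNNT2, the troponin T of heart muscle (chr1:201359008-201377762 on GRCh38), had 148, 151 and 146 TPM with sgPOU2F3 and 9.93, 7.4 and 11.2 TPM with sgRosa in L191A cells. TNNT2 in WT cells had 4.75, 6.26 and 6.29 TPM with sgPOU2F3 and 3.51, 4.65 and 3.18 TPM with sgRosa. The L191A sgPOU2F3 libraries stood above all other libraries of the series. For TNNT2 the difference of the responses was 3.34 ± 0.31 log2 units (SE; adjusted p = 0.00125) in 12 libraries. TNNT2 differed by 3.27 (adjusted p = 8.97e-07) in 10 libraries and by 2.56 (adjusted p = 0.00757) after median-ratio scaling. Empty-vector cells had 28.9, 29.9 and 30.1 TPM with sgPOU2F3 and 1.47, 1.99 and 2.19 TPM with sgRosa.

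TNC encodes tenascin C, a matrix protein of wounds and tumours (chr9:115019578-115118257). It had 23.2, 23.6 and 24.1 TPM with sgPOU2F3 and 0.354, 2.04 and 2.83 TPM with sgRosa in L191A cells. TNC in WT cells had 0.863, 1.31 and 1.09 TPM with sgPOU2F3 and 1.07, 1.2 and 0.648 TPM with sgRosa. The level with sgPOU2F3 was high in all 3 L191A libraries and near that of sgRosa in WT cells, with groups that overlapped in WT. For TNC the difference was 3.21 ± 0.45 log2 units (SE; adjusted p = 0.00541) in 12 libraries. TNC differed by 2.69 (adjusted p = 3.28e-06) in 10 libraries and by 2.80 (adjusted p = 0.000669) after median-ratio scaling. Empty-vector cells had 19.1, 25.1 and 16.6 TPM with sgPOU2F3 and 0.886, 0.714 and 0.627 TPM with sgRosa.

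MATN2 encodes matrilin 2, an adaptor protein of the matrix (chr8:97868840-98036716). It had 56.3, 54.7 and 53.9 TPM with sgPOU2F3 and 3.59, 9.37 and 10.2 TPM with sgRosa in L191A cells. MATN2 in WT cells had 11.5, 13.3 and 14 TPM with sgPOU2F3 and 23, 19.8 and 18.8 TPM with sgRosa. L191A cells were above WT cells with sgPOU2F3 and below them with sgRosa, with no overlap under either guide. For MATN2 the difference was 3.41 ± 0.42 log2 units (SE; adjusted p = 0.00267) in 12 libraries. MATN2 differed by 2.93 (adjusted p = 1.45e-07) in 10 libraries and by 2.59 (adjusted p = 9.85e-05) after median-ratio scaling.

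ARHGAP23, which encodes a GTPase-activating protein, had the largest of these differences in 12 libraries, 3.56 ± 0.79 log2 units (SE; adjusted p = 0.0429) in 12 libraries. ARHGAP23 differed by 2.32 (adjusted p = 1.92e-06) in 10 libraries and by 2.85 (adjusted p = 0.0129) after median-ratio scaling. Its values were 31.7, 29.4 and 33.1 TPM with sgPOU2F3 and 1.13, 8.64 and 8.55 TPM with sgRosa in L191A cells. ARHGAP23 in WT cells had 2.64, 8.63 and 10.8 TPM with sgPOU2F3 and 17, 13.2 and 14.6 TPM with sgRosa. The skewed libraries had the lowest value in each of their groups, and the difference was smaller without them.

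PAX1, which encodes a paired-box developmental factor (chr20:21705659-21718486), moved in opposite directions in the lines, with a response of 1.69 log2 units in L191A cells (adjusted p = 2.73e-07) and -0.97 in WT cells (adjusted p = 8.02e-05) in the 10 libraries. It had 9.08, 9.29 and 9.44 TPM with sgPOU2F3 and 0.828, 2.05 and 2.32 TPM with sgRosa in L191A cells. PAX1 in WT cells had 3.06, 5.98 and 7 TPM with sgPOU2F3 and 15.4, 12.8 and 12.9 TPM with sgRosa. For PAX1 the difference was 3.22 ± 0.42 log2 units (SE; adjusted p = 0.00336) in 12 libraries. PAX1 differed by 2.66 (adjusted p = 8.83e-07) in 10 libraries and by 2.54 (adjusted p = 0.000151) after median-ratio scaling. Empty-vector cells had 1.34, 2.07 and 1.82 TPM with sgPOU2F3 and 8.6, 7.03 and 15.5 TPM with sgRosa, so the level with sgPOU2F3 was below that with sgRosa there, as in WT cells.

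CLSTN2, which encodes the synaptic adhesion protein calsyntenin 2, had 6.05, 5.88 and 5.89 TPM with sgPOU2F3 and 0.135, 1.04 and 1.25 TPM with sgRosa in L191A cells. CLSTN2 in WT cells had 0.994, 1.79 and 1.4 TPM with sgPOU2F3 and 4.12, 4.19 and 4.41 TPM with sgRosa. For CLSTN2 the difference was 3.14 ± 0.34 log2 units (SE; adjusted p = 0.00197) in 12 libraries. CLSTN2 differed by 2.71 (adjusted p = 9.29e-07) in 10 libraries and by 2.68 (adjusted p = 0.000312) after median-ratio scaling. TMTC1, which encodes a mannosyltransferase of the endoplasmic reticulum, differed by 3.21 ± 0.48 log2 units (SE; adjusted p = 0.00751) in 12 libraries. TMTC1 differed by 2.55 (adjusted p = 8.97e-07) in 10 libraries and by 2.47 (adjusted p = 0.000151) after median-ratio scaling.

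The rest of the 12 were SHROOM3 (an actin-binding protein of apical constriction), TINAGL1 (a matrix protein of basement membranes), GULP1 (an adaptor of engulfment), GPC1 (the proteoglycan glypican 1) and FLNC (filamin C, a crosslinker of actin). Their differences were 3.29, 3.29, 3.24, 3.18 and 3.01 log2 units in 12 libraries and 2.31, 2.92, 2.35, 2.37 and 2.14 in 10, in that order. After median-ratio scaling they were 2.60, 2.64, 2.57, 2.47 and 2.48. TINAGL1 had 23.3, 20.5 and 19.9 TPM with sgPOU2F3 and 1.03, 2.4 and 2.63 TPM with sgRosa in L191A cells. TINAGL1 in WT cells had 2.24, 2.36 and 3.78 TPM with sgPOU2F3 and 4.19, 2.93 and 4.45 TPM with sgRosa. GULP1 had 43.7, 43.1 and 39.6 TPM with sgPOU2F3 and 0.744, 6.39 and 7.58 TPM with sgRosa in L191A cells. GULP1 in WT cells had 6.31, 8.65 and 9.95 TPM with sgPOU2F3 and 11, 7.32 and 8.02 TPM with sgRosa. In both genes every L191A sgPOU2F3 library was above every other library of the 12.

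**Figure D3:**
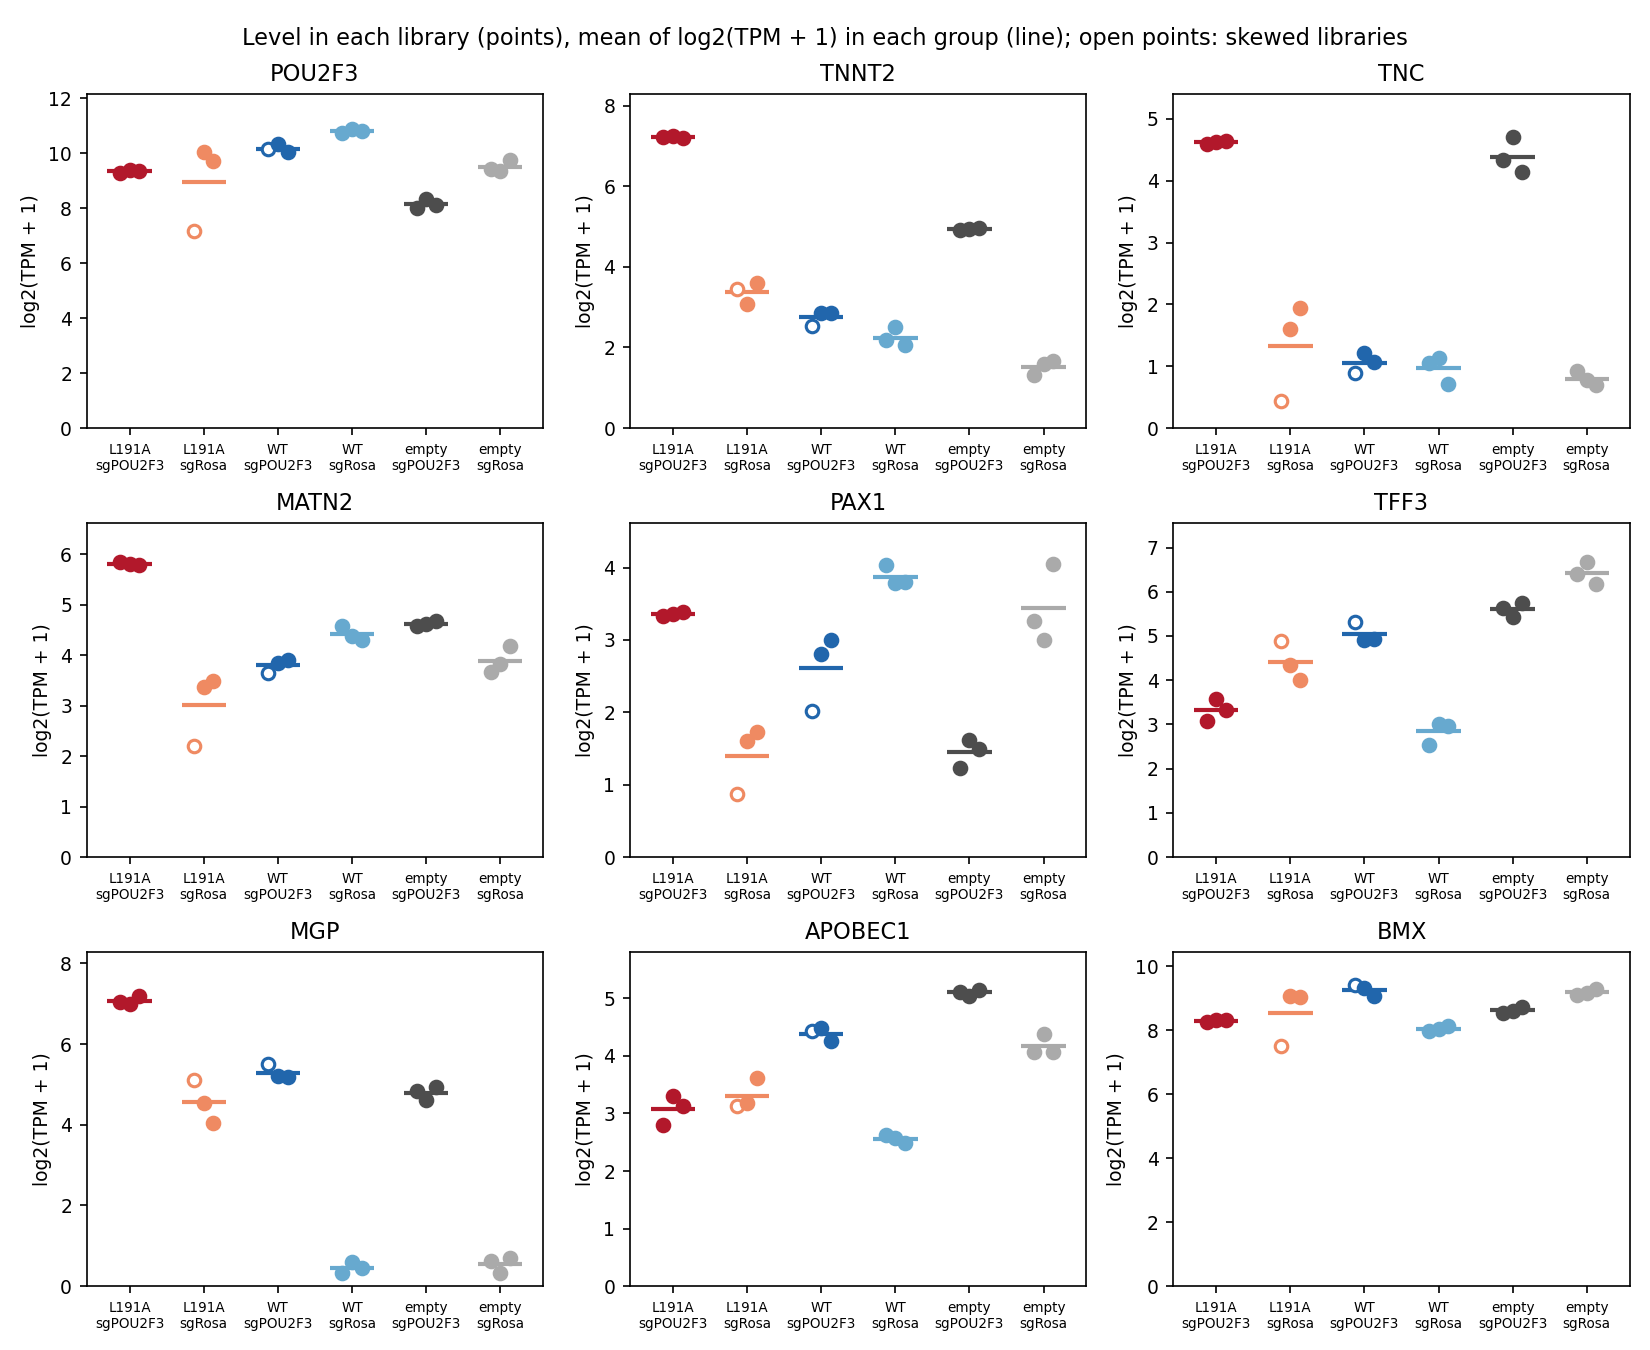
Level of 9 genes in each library (points, log2(TPM + 1) on the vertical axis) by group (horizontal axis), with the mean of the 3 libraries as a line and the 2 skewed libraries as open points. TNNT2, TNC and MATN2 are highest in L191A sgPOU2F3 cells among the 4 groups compared, MGP is lowest in WT sgRosa cells, and TFF3 and APOBEC1 are higher with sgPOU2F3 than with sgRosa in WT cells but not in L191A cells.

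Genes called lower in all 3 settings numbered 6, and all 6 were also called with the length trend removed in 10 libraries. They were TFF3, ERP27, MGP, APOBEC1, TMSB15A and the unnamed locus LOC284898. Their median transcript length was 694 bases. TFF3, which encodes a trefoil peptide of mucous epithelium (chr21:42311667-42315651), had 7.4, 10.9 and 9.06 TPM with sgPOU2F3 and 28.5, 19.3 and 15.1 TPM with sgRosa in L191A cells. TFF3 in WT cells had 39, 29 and 29.3 TPM with sgPOU2F3 and 4.83, 7.05 and 6.83 TPM with sgRosa. It was higher with sgPOU2F3 in all WT libraries and lower with sgPOU2F3 in all L191A libraries, with no overlap in either line. For TFF3 the difference was -3.29 ± 0.38 log2 units (SE; adjusted p = 0.00221) in 12 libraries. TFF3 differed by -2.92 (adjusted p = 3.5e-06) in 10 libraries and by -4.12 (adjusted p = 0.00514) after median-ratio scaling. Empty-vector cells had 49, 41.8 and 52.7 TPM with sgPOU2F3 and 84, 101 and 70.8 TPM with sgRosa.

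APOBEC1, which encodes the cytidine deaminase that edits apolipoprotein B messenger RNA (chr12:7649400-7665903), had 5.96, 8.82 and 7.73 TPM with sgPOU2F3 and 7.77, 8.05 and 11.2 TPM with sgRosa in L191A cells. APOBEC1 in WT cells had 20.6, 21.3 and 18.1 TPM with sgPOU2F3 and 5.18, 4.93 and 4.61 TPM with sgRosa. It rose in WT cells and its groups overlapped in L191A cells, with responses of -0.23 log2 units in L191A cells (adjusted p = 0.508) and 1.83 in WT cells (adjusted p = 0.00218) in 12 libraries. For APOBEC1 the difference was -2.06 ± 0.31 log2 units (SE; adjusted p = 0.00751) in 12 libraries. APOBEC1 differed by -2.13 (adjusted p = 2.88e-05) in 10 libraries and by -2.86 (adjusted p = 0.00185) after median-ratio scaling.

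MGP and ERP27 lie near each other on chromosome 12. MGP encodes matrix Gla protein, an inhibitor of calcification (chr12:14881181-14885926), and ERP27 a chaperone-binding protein of the endoplasmic reticulum (chr12:14914035-14939082). MGP had 132, 126 and 146 TPM with sgPOU2F3 and 33.6, 22.1 and 15.6 TPM with sgRosa in L191A cells. MGP in WT cells had 44.2, 35.7 and 35.3 TPM with sgPOU2F3 and 0.262, 0.5 and 0.362 TPM with sgRosa. For MGP, empty-vector cells had 27.6, 23.3 and 29.8 TPM with sgPOU2F3 and 0.548, 0.259 and 0.607 TPM with sgRosa. ERP27 had 128, 112 and 110 TPM with sgPOU2F3 and 27, 70 and 42.2 TPM with sgRosa in L191A cells. ERP27 in WT cells had 35.2, 25.7 and 31.5 TPM with sgPOU2F3 and 2, 0.584 and 1.29 TPM with sgRosa. For ERP27, empty-vector cells had 13, 12.9 and 17.2 TPM with sgPOU2F3 and 0.431, 0.535 and 0.596 TPM with sgRosa. Both genes rose with sgPOU2F3 in both lines, and L191A cells had more of both than WT cells under each guide. For MGP the responses were 2.52 log2 units in L191A cells (adjusted p = 0.00016) and 4.84 in WT cells (adjusted p = 8.17e-06) in 12 libraries. The difference for MGP was -2.32 ± 0.36 log2 units (SE; adjusted p = 0.00945) in 12 libraries. MGP differed by -1.94 (adjusted p = 1.29e-05) in 10 libraries and by -2.92 (adjusted p = 0.0332) after median-ratio scaling. For ERP27 the responses were 1.42 log2 units in L191A cells (adjusted p = 0.0414) and 3.83 in WT cells (adjusted p = 0.00019) in 12 libraries. The difference for ERP27 was -2.42 ± 0.47 log2 units (SE; adjusted p = 0.0237) in 12 libraries. ERP27 differed by -2.65 (adjusted p = 8.84e-05) in 10 libraries and by -3.13 (adjusted p = 0.00108) after median-ratio scaling. The smaller response of L191A cells stood beside a higher level in L191A sgRosa cells.

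TMSB15A, which encodes a thymosin beta that binds actin, had 86.2, 96 and 95.5 TPM with sgPOU2F3 and 189, 172 and 134 TPM with sgRosa in L191A cells. TMSB15A in WT cells had 254, 230 and 196 TPM with sgPOU2F3 and 145, 165 and 169 TPM with sgRosa. For TMSB15A the difference was -1.31 ± 0.23 log2 units (SE; adjusted p = 0.0152) in 12 libraries. TMSB15A differed by -1.12 (adjusted p = 0.00029) in 10 libraries and by -2.22 (adjusted p = 0.0469) after median-ratio scaling. TMSB15B is a near-identical copy, and how reads were split between them is not given.

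Since fewer than 12 genes were called lower in all 3 settings, 7 more were taken from those called lower in the 10 libraries with and without median-ratio scaling. They were MT1A, FOXI1, BMX, HIST2H2AC, NDUFS5, PF4V1 and TMSB10, and none of them was called in 12 libraries. FOXI1, which encodes the forkhead factor of ionocytes, had 35.2, 35.8 and 34.3 TPM with sgPOU2F3 and 43.1, 83.4 and 81.9 TPM with sgRosa in L191A cells. FOXI1 in WT cells had 18.2, 25.2 and 28.7 TPM with sgPOU2F3 and 15.2, 14.4 and 14.1 TPM with sgRosa. The level was lower with sgPOU2F3 in L191A cells and higher with it in WT cells. For FOXI1 the difference was -1.57 ± 0.37 log2 units (SE; adjusted p = 0.0514) in 12 libraries. FOXI1 differed by -2.06 (adjusted p = 6.16e-07) in 10 libraries and by -2.44 (adjusted p = 0.000129) after median-ratio scaling. BMX, which encodes a tyrosine kinase of the TEC family and marks tuft cells, had 304, 319 and 319 TPM with sgPOU2F3 and 180, 531 and 522 TPM with sgRosa in L191A cells. BMX in WT cells had 679, 631 and 531 TPM with sgPOU2F3 and 250, 260 and 280 TPM with sgRosa. For BMX the difference was -1.44 ± 0.46 log2 units (SE; adjusted p = 0.113) in 12 libraries. BMX differed by -1.88 (adjusted p = 9.29e-07) in 10 libraries and by -2.35 (adjusted p = 0.00253) after median-ratio scaling. The skewed L191A sgRosa library had 180 TPM of BMX, below the other L191A libraries. MT1A, PF4V1 and HIST2H2AC belong to families of near-identical copies and are uncertain.

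The octamer was looked for in the 300 bases around the start of the genes with the largest differences (250 bases before and 50 after, RefSeq, GRCh38.p14). Of the 24 such genes, 17 had a promoter in the table, and 3 of these held the octamer, ATGCAAAT, on either strand (ATTTGCAT on the other). They were APOBEC1, TNC and HIST2H2AC (H2AC20). The octamer stood in 2.01% of the 149 promoters of genes called higher in all 3 settings, in 1.39% of the 10125 promoters of genes tested and in 1.8% of all 27305 promoters of that length. The TEAD motif GGAATG, or CATTCC on the other strand, stood in 20.8% of promoters of genes called higher, 10.8% of those of genes tested and 14.0% of all. The AP-1 motif TGANTCA stood in 5.37% of promoters of genes called higher, 4.35% of those of genes tested and 7.76% of all, so its share in the called genes lay above that of genes tested and below that of all. These matches are descriptions of the sequence and not binding sites. The promoters of APOBEC1 (chr12:7665859-7666158, minus strand) and TNC (chr9:115118108-115118407, minus strand) are shown because they hold the octamer in a gene called lower and in a gene called higher. Each runs 5′ to 3′ on the strand of the gene, with the octamers in capitals.
APOBEC1: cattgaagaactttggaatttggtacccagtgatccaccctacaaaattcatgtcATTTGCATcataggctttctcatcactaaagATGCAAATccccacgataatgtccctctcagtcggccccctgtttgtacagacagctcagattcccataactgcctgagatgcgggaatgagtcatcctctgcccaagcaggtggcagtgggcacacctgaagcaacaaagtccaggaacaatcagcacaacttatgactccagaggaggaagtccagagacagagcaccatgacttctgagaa
TNC: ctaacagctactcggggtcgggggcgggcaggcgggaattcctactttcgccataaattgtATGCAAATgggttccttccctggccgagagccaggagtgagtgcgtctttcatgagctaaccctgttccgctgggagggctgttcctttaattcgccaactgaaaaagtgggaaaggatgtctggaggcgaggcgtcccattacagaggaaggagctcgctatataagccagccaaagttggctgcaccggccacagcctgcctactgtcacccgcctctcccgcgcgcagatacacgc
The APOBEC1 window held the octamer 195 bases before the RefSeq start, on the other strand, and 164 bases before it, and the TNC window held it 189 bases before the start. The AP-1 and TEAD matches in the APOBEC1 window overlap each other and not the octamers.

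Genes of adhesion and contractility had the largest median difference of the lists described. Of 27 genes of integrins and focal adhesion tested, 6 were called higher and 0 lower in 12 libraries. In 10 libraries 22 were called higher and 0 lower, after median-ratio scaling 8 and 0, and without the length trend in the 10 libraries 19 and 0. For the adhesion list, the median difference was 2.02 log2 units in 12 libraries, 1.16 in 10, 1.14 after scaling and 0.90 without the length trend. Over all genes the shares called higher were 2.21%, 30.8%, 2.53% and 11.9%. CNN1, the calponin of smooth muscle, had 12.1, 10.5 and 9.13 TPM with sgPOU2F3 and 0.135, 0.314 and 0.652 TPM with sgRosa in L191A cells. CNN1 in WT cells had 0.625, 0.756 and 0.923 TPM with sgPOU2F3 and 0, 0.066 and 0.149 TPM with sgRosa. It was above all other libraries of the 12 in L191A sgPOU2F3 cells. For CNN1, empty-vector cells had 11.3, 9.1 and 8.21 TPM with sgPOU2F3 and 0.323, 0.93 and 0.116 TPM with sgRosa. For CNN1 the difference was 2.37 ± 0.24 log2 units (SE; adjusted p = 0.00129) in 12 libraries. CNN1 differed by 2.18 (adjusted p = 2.97e-05) in 10 libraries and by 2.19 (adjusted p = 0.000151) after median-ratio scaling. ITGB3, the integrin beta 3 chain, differed by 2.13 ± 0.32 log2 units (SE; adjusted p = 0.00787) in 12 libraries. ITGB3 differed by 1.71 (adjusted p = 6.74e-05) in 10 libraries and by 1.72 (adjusted p = 0.00176) after median-ratio scaling. The other called members in 12 libraries were ZYX (zyxin), CAVIN1 (a coat protein of caveolae), TPM1 and MYL9. TPM1 (tropomyosin 1) and MYL9 (a regulatory myosin light chain) were called in 12 and in 10 libraries and not after scaling, with 0.50 and 0.91 log2 units after it.

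The Hippo pathway factors YAP and TAZ drive transcription with TEAD factors when cells spread. Of 23 YAP and TAZ targets tested, 5 were called higher and 0 lower in 12 libraries. In 10 libraries 15 were called higher and 2 lower, after median-ratio scaling 7 and 1, and without the length trend in the 10 libraries 11 and 3. For YAP and TAZ targets, the median difference was 1.35 log2 units in 12 libraries, 0.76 in 10, 0.77 after scaling and 0.36 without the length trend. The shares of all genes, given above, were 2.21%, 30.8%, 2.53% and 11.9% called higher and 0.0771%, 4.39%, 0.817% and 11.5% called lower. F3, which encodes tissue factor, had 13, 11.4 and 7.61 TPM with sgPOU2F3 and 1.58, 2.5 and 2.84 TPM with sgRosa in L191A cells. F3 in WT cells had 1.73, 2.53 and 2.99 TPM with sgPOU2F3 and 3.35, 3.64 and 2.85 TPM with sgRosa. Its groups did not overlap between the guides in L191A cells and overlapped between them in WT cells. For F3 the difference was 2.15 ± 0.35 log2 units (SE; adjusted p = 0.0116) in 12 libraries. F3 differed by 1.83 (adjusted p = 0.000254) in 10 libraries and by 1.48 (adjusted p = 0.0104) after median-ratio scaling. AJUBA, a LIM protein that restrains LATS kinases, had 18.9, 20.2 and 19.7 TPM with sgPOU2F3 and 1.36, 3.43 and 4.18 TPM with sgRosa in L191A cells. AJUBA in WT cells had 1.7, 3.31 and 4.12 TPM with sgPOU2F3 and 2.28, 2.23 and 1.93 TPM with sgRosa. For AJUBA the difference was 2.13 ± 0.44 log2 units (SE; adjusted p = 0.0286) in 12 libraries. AJUBA differed by 1.52 (adjusted p = 6.33e-05) in 10 libraries and by 1.51 (adjusted p = 0.00344) after median-ratio scaling. LATS2 (a kinase that inhibits YAP) and DLC1 (a GTPase-activating protein) differed by 1.85 ± 0.37 log2 units (SE; adjusted p = 0.0261) and 1.25 ± 0.26 log2 units (SE; adjusted p = 0.0304) in 12 libraries. In 10 libraries their differences were 1.33 and 0.99, and after scaling 1.43 and 0.77, called in each. DLC1 did not pass the test in L191A cells in the 10 libraries, at 0.35 (adjusted p = 0.139). Its response in WT cells there was -0.63 (adjusted p = 0.00375), and in empty-vector cells it was -0.55. KRT17, a member of this list named below, was among those called lower in the 10 libraries. The L191A response itself was called higher in 20 of 23 members in the 10 libraries (background 9.94%), and the WT response in 12 (background 7.41%). The L191A response was called lower in 0 of the 23 (background 5.57%) and the WT response in 7 (background 44.2%).

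Matrix genes and their remodellers followed. Of 20 genes of the extracellular matrix and its remodelling tested, 3 were called higher and 1 lower in 12 libraries. In 10 libraries 11 were called higher and 1 lower, after median-ratio scaling 5 and 1, and without the length trend in the 10 libraries 10 and 1. For the matrix list, the median difference was 1.21 log2 units in 12 libraries, 0.88 in 10, 0.81 after scaling and 0.55 without the length trend. Over all genes the medians were 0.8, 0.28, 0.02 and 0 in that order. Called higher were 2.21%, 30.8%, 2.53% and 11.9% of all genes, and called lower 0.0771%, 4.39%, 0.817% and 11.5%. TNC and MGP, given above, are members of the matrix list that differed in opposite directions. COL12A1, a fibril-associated collagen, had 3.6, 3.69 and 3.83 TPM with sgPOU2F3 and 0.293, 1.55 and 1.82 TPM with sgRosa in L191A cells. COL12A1 in WT cells had 0.365, 0.535 and 0.797 TPM with sgPOU2F3 and 2.58, 1.75 and 1.75 TPM with sgRosa. For COL12A1 the difference was 2.11 ± 0.37 log2 units (SE; adjusted p = 0.0173) in 12 libraries. COL12A1 differed by 1.67 (adjusted p = 0.000174) in 10 libraries and by 1.68 (adjusted p = 0.0043) after median-ratio scaling. LAMB3, a chain of laminin 332, had 24, 26.4 and 24.7 TPM with sgPOU2F3 and 2.12, 5.31 and 5.43 TPM with sgRosa in L191A cells. LAMB3 in WT cells had 2.93, 5.28 and 4.71 TPM with sgPOU2F3 and 3.38, 3.23 and 2.59 TPM with sgRosa. For LAMB3 the difference was 2.01 ± 0.42 log2 units (SE; adjusted p = 0.0311) in 12 libraries. LAMB3 differed by 1.47 (adjusted p = 5.58e-05) in 10 libraries and by 1.32 (adjusted p = 0.0028) after median-ratio scaling. Among basal and squamous genes, 1 of 8 members was called higher in 12 libraries, LAMB3, and 0 lower. In the 10 libraries 5 were called higher and 1 lower, against 30.8% and 4.39% of all genes. After scaling 2 were called higher and 1 lower. The member called lower in the 10 libraries was KRT17, a keratin of basal cells. S100A2, a calcium-binding protein of basal cells, and DSC3, a desmosomal cadherin, differed by 1.60 and 1.02 log2 units in the 10 libraries, both called there and not in 12. In 12 libraries they were 1.48 and 1.40, and after scaling 0.96 and 0.97, without a call. DSC3 was not called with the length trend removed in the 10 libraries, at 0.52 (adjusted p = 0.0983). The summed level of basal markers was 363 to 412 TPM in L191A sgPOU2F3 libraries, 98.1 to 138 TPM in L191A sgRosa libraries, 77.6 to 105 TPM in WT sgPOU2F3 libraries and 54 to 63.1 TPM in WT sgRosa libraries.

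Keratins and junction genes of epithelium were called higher in part. Of 24 epithelial genes tested, 6 were called higher and 0 lower in 12 libraries. In 10 libraries 17 were called higher and 1 lower, after median-ratio scaling 2 and 1, and without the length trend in the 10 libraries 11 and 2. For the epithelial list, the median difference was 1.33 log2 units in 12 libraries, 0.77 in 10, 0.57 after scaling and 0.39 without the length trend. Over all genes the medians were 0.8, 0.28, 0.02 and 0 in that order. Called higher were 2.21%, 30.8%, 2.53% and 11.9% of all genes, and called lower 0.0771%, 4.39%, 0.817% and 11.5%. KRT18, a keratin of simple epithelia that also counts as a tuft marker, had 1205, 1217 and 1276 TPM with sgPOU2F3 and 268, 302 and 359 TPM with sgRosa in L191A cells. KRT18 in WT cells had 435, 425 and 453 TPM with sgPOU2F3 and 395, 395 and 411 TPM with sgRosa. Its partner KRT8 had 1544, 1649 and 1570 TPM with sgPOU2F3 and 275, 393 and 463 TPM with sgRosa in L191A cells. KRT8 in WT cells had 557, 511 and 501 TPM with sgPOU2F3 and 436, 431 and 473 TPM with sgRosa. Both were highest in L191A sgPOU2F3 cells with no overlap. For KRT18 the difference was 1.87 ± 0.17 log2 units (SE; adjusted p = 0.00125) in 12 libraries. KRT18 differed by 1.77 (adjusted p = 1.2e-06) in 10 libraries and by 0.96 (adjusted p = 0.128) after median-ratio scaling. For KRT8 the difference was 1.88 ± 0.24 log2 units (SE; adjusted p = 0.00275) in 12 libraries. KRT8 differed by 1.71 (adjusted p = 2.11e-06) in 10 libraries and by 0.96 (adjusted p = 0.12) after median-ratio scaling. The call was lost after scaling for both. KRT19 differed by 1.41 ± 0.20 log2 units (SE; adjusted p = 0.00541) in 12 libraries. KRT19 differed by 1.39 (adjusted p = 1.29e-05) in 10 libraries and by 0.51 (adjusted p = 0.356) after median-ratio scaling. CLDN1, a tight junction protein, had 33.5, 30.7 and 31.1 TPM with sgPOU2F3 and 3.76, 9.83 and 10.2 TPM with sgRosa in L191A cells. CLDN1 in WT cells had 16.8, 18.9 and 15.2 TPM with sgPOU2F3 and 28.3, 26 and 25.2 TPM with sgRosa. For CLDN1 the difference was 2.60 ± 0.42 log2 units (SE; adjusted p = 0.0111) in 12 libraries. CLDN1 differed by 2.19 (adjusted p = 9.29e-07) in 10 libraries and by 1.76 (adjusted p = 0.00158) after median-ratio scaling.

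The list of growth factor receptors and their adaptors also holds binding proteins of insulin-like growth factors. It had 4 of 17 members called higher in 12 libraries, 11 of 17 in the 10 and 4 of 17 after scaling. None was called lower in these. The 4 called in 12 libraries were IGFBP4, IGFBP6, IRS2 and FGFR2. Without the length trend in the 10 libraries 7 members were called higher and 1 lower. Of all genes 2.21% were called higher in 12 libraries, 30.8% in 10, 2.53% after scaling and 11.9% without the length trend. Called lower were 0.0771%, 4.39%, 0.817% and 11.5% of all genes, in the same order. IGFBP4, a binding protein of insulin-like growth factors, had 297, 293 and 266 TPM with sgPOU2F3 and 21.8, 21.5 and 29.5 TPM with sgRosa in L191A cells. IGFBP4 in WT cells had 11.5, 22.2 and 33.8 TPM with sgPOU2F3 and 7.57, 6.76 and 6.44 TPM with sgRosa. It was higher with sgPOU2F3 in both lines. For IGFBP4 the difference was 2.06 ± 0.43 log2 units (SE; adjusted p = 0.0332) in 12 libraries. IGFBP4 differed by 1.60 (adjusted p = 0.000226) in 10 libraries and by 1.22 (adjusted p = 0.112) after median-ratio scaling. IRS2, an adaptor of the insulin receptor, had 10.9, 11 and 10.9 TPM with sgPOU2F3 and 0.928, 2.59 and 2.55 TPM with sgRosa in L191A cells. IRS2 in WT cells had 0.854, 3.28 and 4.19 TPM with sgPOU2F3 and 4.93, 4.07 and 4.18 TPM with sgRosa. For IRS2 the difference was 2.68 ± 0.51 log2 units (SE; adjusted p = 0.0231) in 12 libraries. IRS2 differed by 1.93 (adjusted p = 1e-05) in 10 libraries and by 2.06 (adjusted p = 0.00721) after median-ratio scaling. FGFR2, a receptor of fibroblast growth factors, differed by 2.42 ± 0.47 log2 units (SE; adjusted p = 0.025) in 12 libraries. FGFR2 differed by 1.78 (adjusted p = 4.8e-05) in 10 libraries and by 1.81 (adjusted p = 0.0033) after median-ratio scaling. IGFBP6 was called in 12 and in 10 libraries, by 1.62 and 1.71 log2 units, and not after scaling, at 0.98 (adjusted p = 0.119).

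Tuft genes had a median difference below that of all genes under each setting given here. Of 33 tuft markers tested, 1 was called higher and 0 lower in 12 libraries. In 10 libraries 3 were called higher and 15 lower, after median-ratio scaling 0 and 9, and without the length trend in the 10 libraries 1 and 17. For tuft markers, the median difference was 0.49 log2 units in 12 libraries, -0.25 in 10, -0.39 after scaling and -0.49 without the length trend. The sign of the list's median thus turned between the settings, while the medians of all genes were 0.8, 0.28, 0.02 and 0. The shares of all genes called lower were 0.0771%, 4.39%, 0.817% and 11.5%, and those called higher 2.21%, 30.8%, 2.53% and 11.9%, in the same order. The 1 member called higher in 12 libraries was KRT18. The 9 called lower after median-ratio scaling were RGS13, RGS21, AVIL, GFI1B, BMX, PTGS1, ANXA13, SPIB and MYB, and each was also called lower in the 10 libraries with and without the length trend. The summed level of the list given above was already lower in L191A than in WT cells under sgRosa. GFI1B, a zinc-finger repressor that maintains tuft cells, had 5.27, 5.88 and 5.9 TPM with sgPOU2F3 and 6.73, 18.1 and 15 TPM with sgRosa in L191A cells. GFI1B in WT cells had 20.4, 17.8 and 20.2 TPM with sgPOU2F3 and 20, 19.1 and 20.6 TPM with sgRosa. The level was lower with sgPOU2F3 in L191A cells, and the guides overlapped in WT cells. For GFI1B the difference was -0.96 ± 0.42 log2 units (SE; adjusted p = 0.132) in 12 libraries. GFI1B differed by -1.32 (adjusted p = 6.33e-05) in 10 libraries and by -1.81 (adjusted p = 0.00225) after median-ratio scaling. MYB, a tuft and progenitor transcription factor, had 45.8, 39.7 and 39.4 TPM with sgPOU2F3 and 31.9, 71.4 and 79.7 TPM with sgRosa in L191A cells. MYB in WT cells had 35.7, 42.5 and 41.2 TPM with sgPOU2F3 and 37.5, 34.5 and 37.3 TPM with sgRosa. For MYB the difference was -0.56 ± 0.40 log2 units (SE; adjusted p = 0.268) in 12 libraries. MYB differed by -1.04 (adjusted p = 9.94e-05) in 10 libraries and by -1.45 (adjusted p = 0.00176) after median-ratio scaling. DCLK1, a kinase that marks tuft cells, had 1.76, 1.51 and 1.2 TPM with sgPOU2F3 and 0.441, 2.46 and 2.01 TPM with sgRosa in L191A cells. DCLK1 in WT cells had 1.83, 4.08 and 5.41 TPM with sgPOU2F3 and 14.7, 12.7 and 11.9 TPM with sgRosa. It differed the other way. For DCLK1 the difference was 1.64 ± 0.50 log2 units (SE; adjusted p = 0.106) in 12 libraries. DCLK1 differed by 0.92 (adjusted p = 0.00676) in 10 libraries and by 1.06 (adjusted p = 0.0918) after median-ratio scaling. With the length trend removed in the 10 libraries DCLK1 was not called, at 0.46 (adjusted p = 0.0891). ANXA13, an annexin of epithelia, differed by -0.88 ± 0.28 log2 units (SE; adjusted p = 0.11) in 12 libraries. ANXA13 differed by -0.97 (adjusted p = 0.0118) in 10 libraries and by -1.28 (adjusted p = 0.0256) after median-ratio scaling.

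Among tuft transcription factors and coactivators, 0 of 13 were called in 12 libraries, with 2 higher and 2 lower at an unadjusted p of 0.05. Of all 12976 genes, 4274 were higher and 422 lower at that unadjusted p. In the 10 libraries 2 were called higher and 6 lower, against 30.8% and 4.39% of all genes. FOXE1, a forkhead factor, and IKZF2, a factor of the Ikaros family, were those called higher there, at 1.07 and 0.67 log2 units. Their differences were 1.75 and 1.16 in 12 libraries and 1.35 and 0.71 after scaling, without a call. IKZF2 was not called without the length trend in the 10 libraries, at 0.32 (adjusted p = 0.221). After scaling 0 members were called higher and 4 lower, against 2.53% and 0.817% of all genes. Without the length trend 1 was called higher and 7 lower, against 11.9% and 11.5%. GFI1B and C11orf53 were among the members called lower. With the length trend removed, C11orf53 differed by -1.03 (adjusted p = 8.29e-05) and GFI1B by -1.56 (adjusted p = 2.96e-05).

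Genes of taste-type signalling are the means by which tuft cells sense bitter and other compounds. Of 20 genes of taste-type signalling tested, 1 was called higher and 0 lower in 12 libraries. In 10 libraries 7 were called higher and 3 lower, after median-ratio scaling 1 and 2, and without the length trend in the 10 libraries 5 and 5. For the taste-type list, the median difference was 1.07 log2 units in 12 libraries, 0.21 in 10, 0.35 after scaling and -0.07 without the length trend. Of all genes 2.21%, 30.8%, 2.53% and 11.9% were called higher and 0.0771%, 4.39%, 0.817% and 11.5% lower, so the count of the list called higher in 10 libraries lay near the background. RGS13, a regulator of G-protein signalling, had 548, 517 and 509 TPM with sgPOU2F3 and 439, 1084 and 986 TPM with sgRosa in L191A cells. RGS13 in WT cells had 1560, 1593 and 1645 TPM with sgPOU2F3 and 1696, 1795 and 1986 TPM with sgRosa. The skewed L191A sgRosa library was below the L191A sgPOU2F3 libraries, and the other L191A sgRosa libraries were above them. For RGS13 the difference was -0.38 ± 0.38 log2 units (SE; adjusted p = 0.416) in 12 libraries. RGS13 differed by -0.81 (adjusted p = 0.000821) in 10 libraries and by -1.29 (adjusted p = 0.0467) after median-ratio scaling. TAS2R38, a bitter taste receptor, had 47.2, 56.8 and 55.3 TPM with sgPOU2F3 and 6.28, 183 and 162 TPM with sgRosa in L191A cells. TAS2R38 in WT cells had 396, 433 and 328 TPM with sgPOU2F3 and 537, 599 and 647 TPM with sgRosa. The skewed library had 6.28 TPM, and the sign of the difference turned without it. For TAS2R38 the difference was 0.47 ± 1.30 log2 units (SE; adjusted p = 0.771) in 12 libraries. TAS2R38 differed by -1.03 (adjusted p = 0.000976) in 10 libraries and by -0.40 (adjusted p = 0.78) after median-ratio scaling. CALHM1 and CALHM3, the subunits of the channel that releases ATP in taste cells, were low in L191A cells under both guides. CALHM1 had 0.587, 0.365 and 0.382 TPM with sgPOU2F3 and 0.0799, 0.528 and 0.662 TPM with sgRosa in L191A cells. CALHM1 in WT cells had 6.31, 9.41 and 8.96 TPM with sgPOU2F3 and 24.5, 19.6 and 19.7 TPM with sgRosa. CALHM3 had 0.424, 0.399 and 0.199 TPM with sgPOU2F3 and 0.12, 0.0916 and 0.0911 TPM with sgRosa in L191A cells. CALHM3 in WT cells had 5.97, 4.62 and 5.4 TPM with sgPOU2F3 and 10.4, 10.5 and 9.75 TPM with sgRosa. In WT cells with sgPOU2F3 they fell by 1.12 and 0.91 log2 units in the 10 libraries, and both were under 1 TPM in every L191A sgRosa library. For CALHM3 the difference was 1.11 ± 0.21 log2 units (SE; adjusted p = 0.0232) in 12 libraries. CALHM3 differed by 1.20 (adjusted p = 0.000799) in 10 libraries and by 0.61 (adjusted p = 0.137) after median-ratio scaling. For CALHM1 the difference was 1.32 ± 0.31 log2 units (SE; adjusted p = 0.0546) in 12 libraries. CALHM1 differed by 0.98 (adjusted p = 0.0027) in 10 libraries and by 0.83 (adjusted p = 0.0481) after median-ratio scaling. TAS2R43, a bitter receptor with near-identical copies, and ITPR3, the calcium channel downstream of taste receptors, differed by 0.92 and 1.03 log2 units in the 10 libraries, both called there. In 12 libraries the values were 1.30 and 1.83 and after scaling 0.77 and 1.24, without a call.

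Of 11 genes of eicosanoid synthesis, 0 were called in 12 libraries, with 0 higher and 1 lower at an unadjusted p of 0.05. Of all 12976 genes, 4274 were higher and 422 lower at that unadjusted p. In the 10 libraries 0 were called higher and 3 lower, against 30.8% and 4.39% of all genes. The 3 were ALOX5, PTGS1 and PLA2G4A, enzymes at the head of leukotriene and prostaglandin synthesis. PTGS1 (cyclooxygenase 1) had 1.67, 1.7 and 1.76 TPM with sgPOU2F3 and 1.43, 3.37 and 3.49 TPM with sgRosa in L191A cells. PTGS1 in WT cells had 12.7, 15.1 and 19.2 TPM with sgPOU2F3 and 19.5, 15.1 and 15.2 TPM with sgRosa. For PTGS1 the difference was -0.33 ± 0.38 log2 units (SE; adjusted p = 0.476) in 12 libraries. PTGS1 differed by -0.75 (adjusted p = 0.0105) in 10 libraries and by -1.06 (adjusted p = 0.00708) after median-ratio scaling. ALOX5 (5-lipoxygenase) had 5.11, 5.62 and 6.53 TPM with sgPOU2F3 and 0.679, 6.72 and 3.97 TPM with sgRosa in L191A cells. ALOX5 in WT cells had 15.1, 26.9 and 24.1 TPM with sgPOU2F3 and 12.8, 10 and 11 TPM with sgRosa. For ALOX5 the difference was -0.13 ± 0.64 log2 units (SE; adjusted p = 0.876) in 12 libraries. ALOX5 differed by -0.99 (adjusted p = 0.0076) in 10 libraries and by -0.80 (adjusted p = 0.197) after median-ratio scaling. PLA2G4A (cytosolic phospholipase A2) differed by -0.29 ± 0.40 log2 units (SE; adjusted p = 0.549) in 12 libraries. PLA2G4A differed by -0.67 (adjusted p = 0.011) in 10 libraries and by -0.99 (adjusted p = 0.0476) after median-ratio scaling. For PTGS1 and PLA2G4A every L191A library was below every WT library. PLA2G16, PTGES3, TBXAS1 and PTGES2 were not called in 12 or 10 libraries.

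The integrated stress response, in which the factor ATF4 raises genes of amino acid supply, had members called lower in the 10 libraries. Of 21 genes of the integrated stress response and serine synthesis tested, 0 were called higher and 0 lower in 12 libraries. At an unadjusted p of 0.05 in 12 libraries, the counts were 3 higher and 4 lower, against 4274 and 422 of all 12976 genes. In 10 libraries 2 were called higher and 8 lower, after median-ratio scaling 0 and 1, and without the length trend in the 10 libraries 2 and 10. For the stress list, the median difference was 0.24 log2 units in 12 libraries, -0.22 in 10, -0.59 after scaling and -0.58 without the length trend. Over all genes the medians were 0.8, 0.28, 0.02 and 0 in that order. Called higher were 2.21%, 30.8%, 2.53% and 11.9% of all genes, and called lower 0.0771%, 4.39%, 0.817% and 11.5%. ATF4 had 264, 283 and 384 TPM with sgPOU2F3 and 453, 423 and 438 TPM with sgRosa in L191A cells. ATF4 in WT cells had 592, 554 and 495 TPM with sgPOU2F3 and 400, 435 and 493 TPM with sgRosa. For ATF4 the difference was -0.82 ± 0.22 log2 units (SE; adjusted p = 0.0768) in 12 libraries. ATF4 differed by -0.74 (adjusted p = 0.0117) in 10 libraries and by -1.73 (adjusted p = 0.0867) after median-ratio scaling. DDIT3, the factor CHOP that ATF4 raises, had 27.3, 29.5 and 36.7 TPM with sgPOU2F3 and 52.4, 40.3 and 32.8 TPM with sgRosa in L191A cells. DDIT3 in WT cells had 84.3, 77.5 and 69.5 TPM with sgPOU2F3 and 49.8, 57.5 and 58.9 TPM with sgRosa. For DDIT3 the difference was -0.87 ± 0.28 log2 units (SE; adjusted p = 0.113) in 12 libraries. DDIT3 differed by -0.63 (adjusted p = 0.0175) in 10 libraries and by -1.77 (adjusted p = 0.106) after median-ratio scaling. In both genes the WT sgPOU2F3 libraries were the highest of the 12. PSAT1, an enzyme of serine synthesis, differed by -0.32 ± 0.37 log2 units (SE; adjusted p = 0.48) in 12 libraries. PSAT1 differed by -0.71 (adjusted p = 0.0104) in 10 libraries and by -1.22 (adjusted p = 0.0178) after median-ratio scaling. VLDLR, a lipoprotein receptor, and CTH, an enzyme of cysteine synthesis, were called higher in the 10 libraries, by 0.77 and 0.66 log2 units. In 12 libraries the values were 1.32 and 0.87 and after scaling 0.48 and 0.06, without a call.

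Transcripts of respiration and of the ribosome had median differences below 0 under each setting and no call in 12 libraries. Over all genes 0.0771% were called lower in 12 libraries, 4.39% in 10, 0.817% after scaling and 11.5% without the length trend. Called higher were 2.21%, 30.8%, 2.53% and 11.9% of all genes, in the same order. Of 33 genes of oxidative phosphorylation tested, 0 were called higher and 0 lower in 12 libraries. At an unadjusted p of 0.05 in 12 libraries, the counts were 1 higher and 12 lower, against 4274 and 422 of all 12976 genes. In 10 libraries 0 were called higher and 10 lower, after median-ratio scaling 0 and 0, and without the length trend in the 10 libraries 0 and 16. For the respiration list, the median difference was -0.33 log2 units in 12 libraries, -0.26 in 10, -1.24 after scaling and -0.44 without the length trend. NDUFA4, a subunit of the respiratory chain, had 487, 513 and 563 TPM with sgPOU2F3 and 548, 614 and 675 TPM with sgRosa in L191A cells. NDUFA4 in WT cells had 493, 399 and 343 TPM with sgPOU2F3 and 230, 307 and 301 TPM with sgRosa. For NDUFA4 the difference was -0.79 ± 0.24 log2 units (SE; adjusted p = 0.102) in 12 libraries. NDUFA4 differed by -0.72 (adjusted p = 0.00747) in 10 libraries and by -1.70 (adjusted p = 0.0779) after median-ratio scaling. COX7B, COX5B and SDHB differed by -0.52, -0.50 and -0.37 log2 units in the 10 libraries, each called there. In 12 libraries the values were -0.82, -0.95 and -0.63 and after scaling -1.74, -1.86 and -1.54, without a call. Of 79 genes of cytosolic ribosomal proteins tested, 0 were called higher and 0 lower in 12 libraries. At an unadjusted p of 0.05 in 12 libraries, the counts were 0 higher and 69 lower, against the same 4274 and 422 of all genes. In 10 libraries 0 were called higher and 37 lower, after median-ratio scaling 0 and 0, and without the length trend in the 10 libraries 0 and 32. For the ribosomal list, the median difference was -0.88 log2 units in 12 libraries, -0.50 in 10, -1.79 after scaling and -0.66 without the length trend. The ribosomal share of TPM moved with the skewed pair and with the group: in the 10 libraries it was 19.92% to 21.3% in L191A sgPOU2F3, 21.6% and 24.25% in L191A sgRosa, 25.31% and 26.4% in WT sgPOU2F3 and 17.56% to 22.52% in WT sgRosa. Its part in the result was not tested.

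Cell division genes were described by phase. The shares of all genes called lower were 0.0771% in 12 libraries, 4.39% in 10, 0.817% after scaling and 11.5% without the length trend. In the same order, 2.21%, 30.8%, 2.53% and 11.9% were called higher, and the all-gene medians were 0.8, 0.28, 0.02 and 0. The medians of the S phase list and of the G2 and M phase list were below these in each setting. Of 42 S phase genes tested, 0 were called higher and 1 lower in 12 libraries. In 10 libraries 2 were called higher and 8 lower, after median-ratio scaling 0 and 0, and without the length trend in the 10 libraries 0 and 18. For the S phase list, the median difference was 0.42 log2 units in 12 libraries, -0.09 in 10, -0.47 after scaling and -0.34 without the length trend. The 1 member called lower in 12 libraries was PCNA, the sliding clamp of DNA replication. Of 54 genes of G2 and M phase tested, 0 were called higher and 0 lower in 12 libraries. At an unadjusted p of 0.05 in 12 libraries, the counts were 2 higher and 5 lower, against 4274 and 422 of all 12976 genes. In 10 libraries 5 were called higher and 7 lower, after median-ratio scaling 0 and 0, and without the length trend in the 10 libraries 0 and 25. For the G2 and M phase list, the median difference was 0.39 log2 units in 12 libraries, -0.06 in 10, -0.51 after scaling and -0.32 without the length trend. Genes of the interferon response had 3 of 20 members called higher in 12 libraries, against 2.21% of all genes, and 0 called lower. The 3 were IFIT1, IFIT3 and GBP1, which encode interferon-induced proteins. In the 10 libraries 6 were called higher and 2 lower, against 30.8% and 4.39% of all genes, so the count called higher lay near the background. After scaling IFIT3 was the 1 member called, as higher, against 2.53% of all genes. Without the length trend in the 10 libraries 2 were called higher and 3 lower, against 11.9% and 11.5% of all genes.

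**Figure D4:**
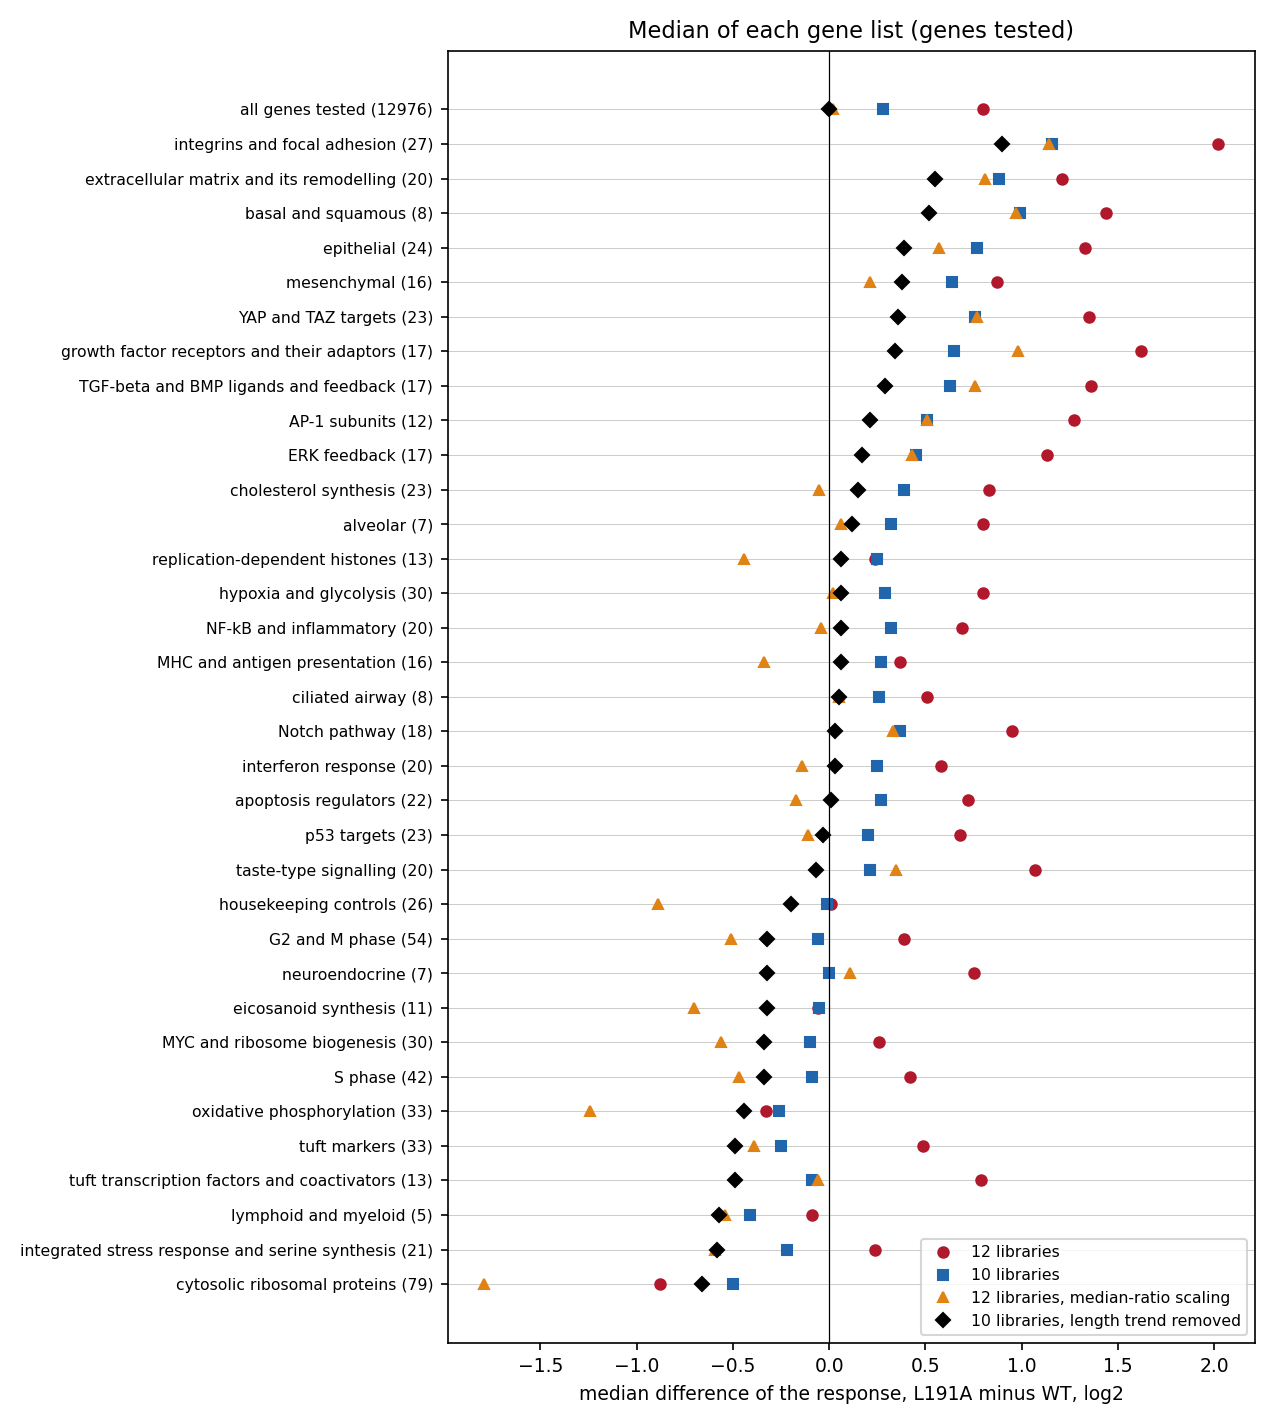
Median difference of the response (L191A minus WT, log2, horizontal axis) of each gene list with at least 5 genes tested (vertical axis, number tested in brackets) under 4 settings. All genes tested lie at 0.8 in 12 libraries, 0.28 in 10, 0.02 after median-ratio scaling and 0 with the length trend removed. Integrins and focal adhesion lie at 2.02 to 0.90, and tuft markers at 0.49 in 12 libraries and below 0 in the other settings.

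Across the 12976 genes, the responses were set beside that of empty-vector cells, which share no library with them. The correlation with the empty-vector response was 0.61 for L191A cells and 0.47 for WT cells in the 10 libraries (Pearson's r across genes, a description). In all 12 libraries it was 0.41 and 0.39. The difference of the responses itself correlated at 0.14 with the empty-vector response in the 10 libraries. These values are given with no test, and genes are not independent replicates.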

How the data were processed

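TRIzol RNA was made into TruSeq libraries from poly(A) RNA, per the labels' protocols. The authors deposited TPM, for which the submitters' processing notes name kallisto and hg38. No version, transcript set or strand setting is given there, so reads of overlapping and antisense genes cannot be told apart. Each column summed to 1000000, so depth and counting error are unknown. Of 19875 entries, 130 named no gene (103 fragments of descriptions and 27 spreadsheet dates, 1.52% to 2.24% of the TPM) and were left out.

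TPM were taken as log2(TPM + 1), which understates the change of low genes. Genes averaging 1 TPM or more in the 12 libraries were tested with limma 3.58.1 (R 4.3.3), 1 coefficient per group, an intensity trend of the variance, two-sided, with Benjamini-Hochberg adjustment at 0.05 over all 12976 genes. The fit was tested on simulated data. Transcript lengths and coordinates came from GENCODE on GRCh38, the assembly of hg38, for 98.1% of tested genes. Median-ratio scaling divided each library by the median ratio of its genes to their geometric mean, and the size factors were 0.435 to 1.44.

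The genes named were the octamer family; the 12 largest differences each way called in all 3 settings with at least 5 TPM in the highest group, clone-type and unnamed loci passed over; where fewer passed, genes called in the 10 libraries before and after scaling; and up to 4 members with the smallest p of each list described. Genes called in 12 libraries and not in 10 were to be named as well, and there were none. Members with the smallest p in the 10 libraries (tuft, taste-type, eicosanoid and stress lists) and LOC284898 were added after values were seen. The members and lists were chosen with earlier results of these data known, so a list's count is no independent evidence. Alternatives were other pseudocounts, filters, scalings, variance models, weights and the libraries left out. No libraries had identical values.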

Additional observations from a re-analysis of the deposited data

Results flagged for a closer look

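Responses that differed between L191A and WT cells, by the test of the difference itself in 12 libraries (limma), numbered 297 over all genes. Among the genes named, those with the higher response in L191A cells were, with the difference in log2 units, ARHGAP23 at 3.56, MATN2 at 3.41, TNNT2 at 3.34, SHROOM3 at 3.29, TINAGL1 at 3.29, GULP1 at 3.24, PAX1 at 3.22, TMTC1 at 3.21, TNC at 3.21, GPC1 at 3.18, CLSTN2 at 3.14, FLNC at 3.01, CNN1 at 2.37, ITGB3 at 2.13, TPM1 at 1.40, MYL9 at 1.79, F3 at 2.15, LATS2 at 1.85, AJUBA at 2.13, DLC1 at 1.25, COL12A1 at 2.11, LAMB3 at 2.01, IGFBP6 at 1.62, IRS2 at 2.68, FGFR2 at 2.42, IGFBP4 at 2.06, KRT18 at 1.87, KRT8 at 1.88, KRT19 at 1.41, CLDN1 at 2.60 and CALHM3 at 1.11. Those with the lower response in L191A cells were TFF3 at -3.29, ERP27 at -2.42, MGP at -2.32, APOBEC1 at -2.06 and TMSB15A at -1.31. All groups had 3 libraries, so no group was tested for a single outlying library, and the skewed pair entered these values.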

How the results depend on the processing

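In 12 libraries 297 genes were called for the difference, 406 for L191A and 102 for WT. Counts that moved by over 1.5 times were, by setting: 10 libraries without the skewed pair, 4569 for the difference, 2013 for L191A, 6695 for WT; all 18 libraries in the fit, 1520 for the difference, 757 for L191A, 925 for WT; median-ratio scaling, 694 for L191A, 285 for WT; quantile normalization, 765 for the difference, 806 for L191A, 1636 for WT; median-ratio scaling in 10 libraries without the skewed pair, 3540 for the difference, 2418 for L191A, 4890 for WT; length trend removed, 469 for the difference, 860 for L191A, 685 for WT; length trend removed in 10 libraries without the skewed pair, 3031 for the difference, 2426 for L191A, 4568 for WT; pseudocount 0.1, 66 for the difference, 59 for WT; pseudocount 5, 828 for the difference, 783 for WT; no filter on low values, 691 for the difference, 477 for WT; mean of at least 5 TPM, 77 for the difference, 199 for L191A, 39 for WT; array weights, 5663 for the difference, 2427 for L191A, 7901 for WT. Leaving out each of the other 10 libraries in turn gave 73 to 560 for the difference, 237 to 473 for L191A and 36 to 114 for WT. Without L191A sgRosa replicate 1 the counts were 1434 for the difference, 748 for L191A and 7542 for WT. Without WT sgPOU2F3 replicate 1 they were 181, 453 and 66, and the cause of these moves was not tested. Same-numbered libraries did not deviate together in every pair of groups (r of -0.394 to 0.421 over 18 pairs, 5 above 0.1, and 6 of 12 libraries correlated best with their own number). Of these 5, 3 were the pairs of L191A sgRosa with WT sgPOU2F3, the groups with the skewed libraries, at 0.419, 0.421 and 0.227. With the replicate number as a block 266, 356 and 77 genes were called. For single genes, 1633 values kept direction and side of the threshold, 160 lost the call, 241 gained one and 25 changed sign, and the cause was not tested. Those that changed sign, in log2 units, were as follows. In 10 libraries without the skewed pair, TAS2R38 at -1.03. Without L191A sgRosa replicate 1 (skewed only), TAS2R38 at -1.05. With median-ratio scaling, PTGES2 at -0.42, PTGES3 at -0.22, TAS2R38 at -0.40 and TBXAS1 at -0.13. With quantile normalization, COLCA2 at -0.18, CTH at -0.18 and TBXAS1 at -0.32. With median-ratio scaling in 10 libraries without the skewed pair, POU2F3 at -0.21, PTGES2 at -0.20, PTGES3 at -0.01 and TAS2R38 at -1.34. With length trend removed, POU2F1 at -0.07, PTGES2 at -0.09, TAS2R38 at -0.01 and TBXAS1 at -0.33. With length trend removed in 10 libraries without the skewed pair, POU2F3 at -0.16, PTGES2 at -0.11 and TAS2R38 at -1.21. With a pseudocount 0.1, ALOX5 at 0.14. With array weights, TAS2R38 at -1.10. Without L191A sgRosa replicate 2, ALOX5 at 0.34. Without L191A sgRosa replicate 3, ALOX5 at 0.03. Without WT sgPOU2F3 replicate 2, ALOX5 at 0.03. Depth is unknown, so no limit from counting can be set, and genes near 1 TPM are the least certain.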
